A study of Mus musculus with 2 samples.

Results

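Interneuron lineage transcription factors are a set of 9 genes, given by symbol, of the 55536 genes measured. They are Dlx1, Dlx2 and Dlx5, which the ganglionic eminences share, Lhx6, Sox6 and Satb1, which follow the medial eminence, and Nr2f2, Prox1 and Npas1, set here with the caudal eminence. Each was found under 1 gene identifier, and the rule uses no measured value. The RNA came from the left cerebral cortex of B6CASTF1/J mice, females of 14 days and the first-generation cross of C57BL/6J and CAST/EiJ. Total RNA was depleted of ribosomal RNA and sequenced from 300 ng per library, and synthetic ERCC RNAs were added as spike-ins. There were 2 libraries of 1 group, which the labels call biological replicates 1 and 2. Both carry the same donor entry, and a shared description speaks of 3 females. The number of mice behind each library is thus unclear.

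Cortical inhibitory interneurons are born outside the cortex, in the ganglionic eminences of the ventral forebrain, and migrate into it before birth. Dlx homeodomain factors act in precursors of all eminences. Nkx2-1 in the medial eminence switches on Lhx6, which acts through Sox6 and Satb1 in the cells that become Sst and Pvalb interneurons. Nr2f2 (COUP-TFII) and Prox1 mark caudal-eminence cells, which become Vip, Reln and other interneurons, and Npas1, counted with the caudal factors below, is known from progenitors of both the medial and caudal eminences. None of these genes is restricted to interneurons. Satb1 is also found in excitatory neurons, Sox6 in oligodendrocyte precursors, Prox1 in dentate granule cells, and Nr2f2 in vessels and meninges. In bulk tissue, fewer cells of a type and less RNA per cell cannot be told apart.

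Genes received 33362704 expected counts in replicate 1 and 32013997 in replicate 2. The tissue label was checked against markers. The excitatory cortical neuron list summed to 1866 and 1777 TPM (a level per transcript length, scaled to a fixed total), and the list of 4 GABA neuron genes to 362 and 368 TPM. All genes of both lists were above 1 TPM. The libraries differed in content: myelin genes summed to 1276 and 701 TPM, striatal genes to 294 and 185 TPM, and choroid plexus genes to 12.1 and 138 TPM. A first quantification of the authors, from an alignment to transcripts, gives the values below, and a second, from the reads, is named where it is used.

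All 9 factors reached 1 TPM in each library, as did 26.6% of all genes measured. Satb1 stood far above the rest, and Dlx2 and Dlx5 lowest. Satb1 was above 88.2% of the 12946 nuclear protein-coding genes that reached 1 TPM in both libraries, and Dlx5 above 11.0% of them. The order of mean TPM was Satb1, Nr2f2, Sox6, Dlx1, Lhx6, Npas1, Prox1, Dlx2 and Dlx5. Of neighbours in this order, Nr2f2 and Sox6 did not differ beyond the spread of the 2 libraries, nor did Dlx2 and Dlx5. The other neighbours had ranges that did not overlap. With 2 values against 2 an exact permutation test cannot go below p = 0.333, so levels are described without a test.

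**Figure D1:**
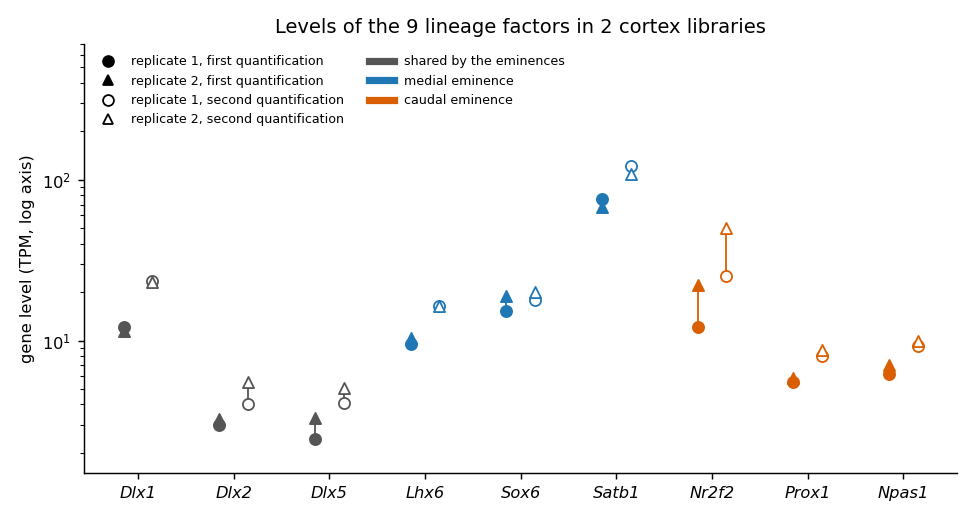
Level of each factor in each library (TPM, log axis). Circles are replicate 1, triangles replicate 2, filled symbols the first quantification and open symbols the second, and lines join the 2 libraries. Satb1 is highest in all 4 sets of values, and the widest gap between libraries is that of Nr2f2, from 12.2 to 22.0 TPM in the first quantification.

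Of the factors shared by the eminences, Dlx1 had the highest level. It lies on chromosome 2 (71528113 to 71533981, plus strand, GRCm38, the assembly called mm10) and received 625 counts in replicate 1 and 631 in replicate 2, or 12.2 and 11.5 TPM. The libraries were close, at 11.8 ± 0.502 TPM (SD, n = 2). Its leading transcript, Dlx1-201, took 73.8% and 66.2% of the gene's counts but 44.0% and 44.1% of its TPM. In the second quantification it held 30.8% and 32.5% of TPM. Dlx1-204 (813 nt) had 3.05 and 2.70 TPM on 46.67 and 39.63 counts, so few reads on shorter transcripts make up part of the Dlx1 TPM. The antisense gene Dlx1as overlaps Dlx1 exons on the other strand and had 66 and 93 counts. The strand setting of the counting is not given, so how many antisense reads were assigned to Dlx1 is not known.

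Dlx2, its neighbour on chromosome 2 (71543408 to 71546754, minus strand), is transcribed towards Dlx1. It had 151 and 144 counts, or 2.96 and 3.27 TPM, and a mean of 3.12 ± 0.219 TPM. No annotated gene overlapped it, and Dlx2-201 took all of its counts in replicate 1 and 97.0% in replicate 2. Dlx5, which lies beside Dlx6 in another such pair on chromosome 6 (6877805 to 6882085, minus strand), had the fewest counts of the set, 69 and 89. Its levels were 2.43 and 3.28 TPM, on both sides of those of Dlx2. Levels of the 3 Dlx genes thus spread from 2.43 to 12.2 TPM within 1 tissue.

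The medial-eminence factors began with Lhx6, a LIM homeodomain factor needed for the migration and maturation of Sst and Pvalb cells. The gene lies on chromosome 2 (36081953 to 36105408, minus strand). It had 629 and 645 counts, or 9.56 and 10.4 TPM, with a mean of 9.96 ± 0.566 TPM. The libraries were close to each other. Gm27953, a short RNA gene that overlaps it on the same strand, had 1 and 0 counts. Transcripts of Lhx6 begin at 2 main places. A group of starts within 200 bases of each other, the outermost at 36105408, took 70.9% of counts in replicate 1 and 75.3% in replicate 2. Lhx6-204, which starts 1348 bases downstream at 36104060, took 28.4% and 23.0%. Both starts were thus in use by this assignment, in the same order in both libraries. In the second quantification the upstream group held 53.8% and 59.4% of Lhx6 TPM and the downstream group 22.4% and 25.6%.

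The 250 bases before each of these starts are shown because they carry the assigned Lhx6 transcripts. They are on the minus strand of GRCm38.p6, 5′ to 3′, from RefSeq, and 8 of the 9 genes had entries there. The window before the upstream start (chr2:36105409-36105658) lies outside Lhx6 and overlaps no annotated exon. The window before the downstream start (chr2:36104061-36104310) lies within Lhx6 and also overlaps no exon. Capitals mark a match to a SOX core, AACAAT or its reverse ATTGTT, whose first base is at -12, where -1 is the base before the start.
Lhx6 upstream start: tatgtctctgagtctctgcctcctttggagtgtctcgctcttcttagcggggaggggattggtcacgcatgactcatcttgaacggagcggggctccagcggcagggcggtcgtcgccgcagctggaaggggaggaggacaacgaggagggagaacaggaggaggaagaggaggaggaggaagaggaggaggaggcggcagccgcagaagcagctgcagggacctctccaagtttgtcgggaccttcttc
Lhx6 downstream start: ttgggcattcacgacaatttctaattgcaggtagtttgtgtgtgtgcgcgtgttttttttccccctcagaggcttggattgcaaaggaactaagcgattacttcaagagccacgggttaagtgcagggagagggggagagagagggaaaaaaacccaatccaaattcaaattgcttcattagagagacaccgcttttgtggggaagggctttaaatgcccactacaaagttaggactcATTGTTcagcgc
GC content was 61.6% in the upstream window and 46.0% in the downstream one. The median of all 32851 RefSeq promoter windows was 52.4%.

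Sox6, an HMG-box factor that acts after Lhx6 in medial-eminence cells, spans 568 kb of chromosome 7 (115470872 to 116038796, minus strand). It had 1359 and 1394 counts, or 15.2 and 18.9 TPM, with a mean of 17.1 ± 2.59 TPM. The TPM of replicate 2 was higher while the counts were nearly equal. A short transcript, Sox6-211 (448 nt), went from 0.63 to 17.7 counts and from 0.0800 to 2.47 TPM, and had 0 TPM in both libraries in the second quantification. Another, Sox6-207 (331 nt), took 24.0% and 21.5% of Sox6 TPM on 18.22 and 19.38 counts. Few reads on short transcripts therefore make up a large part of the Sox6 TPM. By counts, Sox6-210 led with 77.0% and 75.1%. It starts 7749 bases inside the gene's first annotated start.

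The bases before the Sox6-210 start (chr7:116031048-116031297, GRCm38.p6, minus strand, from RefSeq) are shown because most Sox6 counts were assigned there. The window lies within Sox6 and overlaps no exon. Capitals mark AGGTCA, the half-site that nuclear receptors such as Nr2f2 are known to bind, at -74.
Sox6-210 start: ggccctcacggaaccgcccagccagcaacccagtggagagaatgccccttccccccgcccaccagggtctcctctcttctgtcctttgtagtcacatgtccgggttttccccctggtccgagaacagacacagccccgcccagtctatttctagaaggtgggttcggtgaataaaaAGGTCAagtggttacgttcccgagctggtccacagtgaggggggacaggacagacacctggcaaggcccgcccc
AGGTCA or its reverse TGACCT was in 4 of the 20 windows of the factors, from 3 genes, and in 14.0% of all windows. AACAAT or ATTGTT was in 2 of 20 and in 9.42% of all. TAATTA, a homeodomain core that is its own reverse, was in 0 of 20 and in 4.84% of all. A match says only that these letters are in the window, and several windows of 1 gene are not independent.

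Satb1, a chromatin organiser needed for Sst interneurons to mature, lies on chromosome 17 (51736187 to 51833290, minus strand). It had 7207.92 and 6141.91 counts, or 75.9 and 67.3 TPM, with a mean of 71.6 ± 6.07 TPM. Its mean was 4.19 times that of the next gene, Nr2f2. No single start carried it. Satb1-208 led with 36.7% and 37.9% of counts, and transcripts of the group starting at 51826588, 6702 bases inside the first start, took 24.6% and 23.2%. The outermost start, that of Satb1-204, took 11.2% and 8.83%. Of 14 genes that overlap factors of the set, 6 overlap Satb1. They include C230085N15Rik, 5830444F18Rik, E430014B02Rik and Gm37248, on its strand without exon overlap, each between 0.760 and 1.13 TPM. Gm6934, on the other strand with exon overlap, had 111 and 128 counts, few beside those of Satb1.

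**Figure D2:**
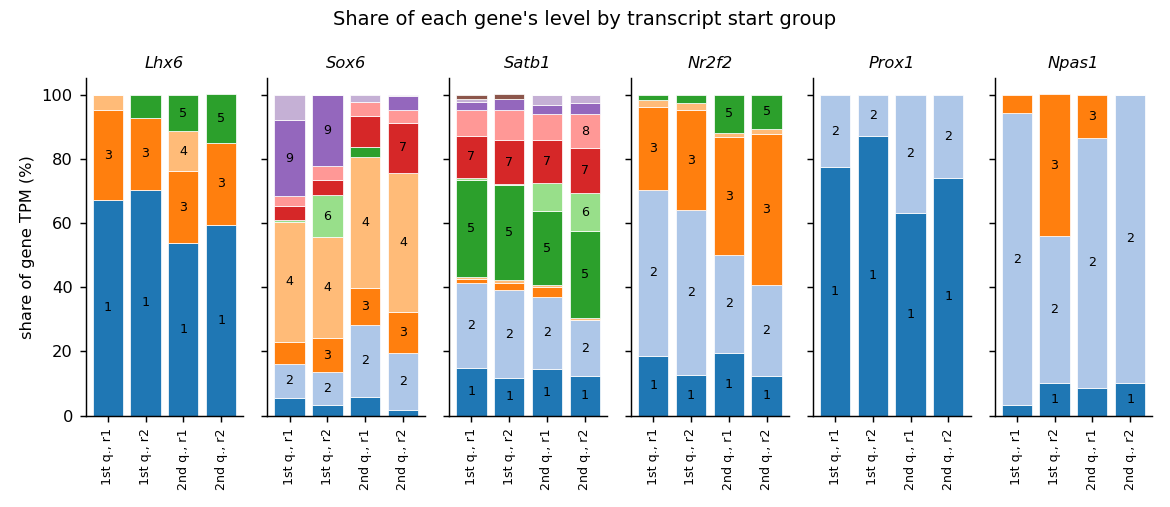
Share of the gene's TPM (%) by group of transcript starts, numbered from the 5′ end, for 6 factors in each quantification (1st q., 2nd q.) and library (r1, r2). Groups of at least 10% carry their number. Group 1 of Lhx6 holds 67.1% and 70.3% in the first quantification, and the Npas1 shares differ between the libraries.

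Among the caudal-eminence factors, Prox1, a homeodomain factor of caudal-eminence interneurons and of dentate granule cells, is on chromosome 1 (190118035 to 190170714, minus strand). It had 738 and 778 counts, or 5.53 and 5.88 TPM, with a mean of 5.71 ± 0.247 TPM, the closest pair of caudal values. The upstream start group took 88.4% and 93.7% of its counts. The antisense gene Prox1os, whose exons overlap it, had 11 and 7 counts. Dentate gyrus and hippocampus genes summed to 69.7 and 80.2 TPM, most of it Wfs1 at 49.3 and 57.3 TPM. Of the 7 genes, 3 were below 1 TPM on average, among them Prox1os itself. The part of these regions in the Prox1 level was not tested.

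Npas1, a bHLH-PAS factor, is on chromosome 7 (16455721 to 16477728, minus strand). It had 263 and 266 counts, or 6.20 and 7.02 TPM, with a mean of 6.61 ± 0.580 TPM. The counts of the gene were nearly equal while those of its transcripts were not. Npas1-201 had 226.49 and 105.55 counts, and Npas1-202, which starts further downstream, had 14.45 and 118.47. In the second quantification Npas1-202 was at 1.25 TPM in replicate 1 and at 0 in replicate 2, the opposite order. The division of Npas1 between these starts was therefore not the same in the 2 quantifications.

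Nr2f2, an orphan nuclear receptor, is on chromosome 7 (70351944 to 70366735, minus strand). It had 697 counts in replicate 1 and 1186 in replicate 2, or 12.2 and 22.0 TPM, with a mean of 17.1 ± 6.99 TPM. Replicate 2 was clearly the higher library. The second quantification gave 25.3 and 50.1 TPM. The range of Nr2f2 in the first quantification holds the whole range of Sox6, so that its place in the order rests on the library.

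Set side by side by origin, the median of the medial factors was higher than that of the caudal ones in both libraries, though not every medial factor was higher than every caudal one. Nr2f2 was above Lhx6 in both libraries and above Sox6 in replicate 2. The median of the medial list was 15.2 and 18.9 TPM, that of the caudal list 6.20 and 7.02 TPM, and that of the shared Dlx list 2.96 and 3.28 TPM. The log2 ratio of medial to caudal medians was 1.28 in replicate 1 and 1.41 in replicate 2, a mean of 1.35 ± 0.09 (SD, n = 2) or 2.55-fold, with 0.1 TPM added to each median. With 3 genes per list, the medial median was the Sox6 value and the caudal median the Npas1 value in both libraries. This ratio and its SD are thus those of Sox6 over Npas1, and the Sox6 TPM rests in part on short transcripts with few reads. In sums the medial list had 101 and 96.5 TPM and the caudal list 23.9 and 34.9 TPM. Most of the medial sum was Satb1: without it the sum was 24.8 and 29.2 TPM, close to the caudal sum in replicate 1 and below it in replicate 2. The ratio of medians also depends on which genes are counted. It was 0.60, or 1.52-fold, without Npas1, the factor known from both eminences, and 0.96 in the second quantification. Lists of 3 genes give no more than a description, and the genes are also expressed outside interneurons.

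Products of the interneuron classes were given by the same libraries. The medial-origin list summed to 404 and 397 TPM, led by Sst at 208 and 215 TPM and Npy at 91.5 and 84.2 TPM. The caudal-origin list summed to 645 and 625 TPM, led by Cck, which excitatory neurons also express, at 317 and 295 TPM. Lamp5 came next at 89.0 and 77.2 TPM, while Vip had 19.7 and 19.6 TPM and Htr3a, the lowest, 2.74 and 2.33 TPM. The lists hold different genes, not all restricted to their class, so the sums do not compare the amounts of the 2 origins. Levels of the 9 factors were thus below those of the leading products of both origins.

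The libraries were next compared gene by gene. For 7 of the 9 factors no difference beyond counting error was found, Nr2f2 was higher in replicate 2, and Satb1 was slightly lower. The exact binomial test on counts, with edgeR TMM scaling and Benjamini-Hochberg adjustment over all 18887 genes tested, called 2 of 9, and 20.3% of all genes tested were called. By direction, 8.50% of all genes were called higher and 11.8% lower in replicate 2. A count of 2 of 9 is near that background and is no result about the set. The median log2 ratio of the 9 was 0.03, and that of all tested genes 0.00. The test takes counting error alone, compares these libraries and says nothing of other mice.

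Nr2f2 rose from 697 to 1186 counts, 1.70-fold after scaling, with a log2 ratio of 0.75 ± 0.07 (counting SE) and adjusted p = 1.18e-27 in the exact binomial test. Genes called higher by 1.5-fold or more made up 2.02% of those tested. With an assumed dispersion of 0.01, a spread between libraries that edgeR's exact test then takes into account, Nr2f2 was still called at adjusted p = 0.0437, when 0.964% of all genes were called. Satb1 fell from 7207.92 to 6141.91 counts, 1.17-fold, with a log2 ratio of -0.23 ± 0.03 and adjusted p = 1.45e-18 in the exact binomial test. With the assumed dispersion that call was lost (adjusted p = 1 in edgeR's exact test).

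The other 7 did not pass. Dlx5 had the widest difference of these, a log2 ratio of 0.30 and adjusted p = 0.322 in the exact binomial test, on the fewest counts. Its 95% interval, from scaled counts without the 0.5 CPM added for the ratio, was -0.10 to 0.84. Dlx1 (0.01), Npas1 (0.01), Lhx6 (0.03), Sox6 (0.04), Prox1 (0.07) and Dlx2 (-0.06) had log2 ratios close to 0. The intervals of the 7 lay between -0.41 and 0.84, so that for Dlx2 and Dlx5 moderate differences were not detectable at this depth. For Sox6, the best covered of the 7, the interval was -0.07 to 0.15.

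**Figure D3:**
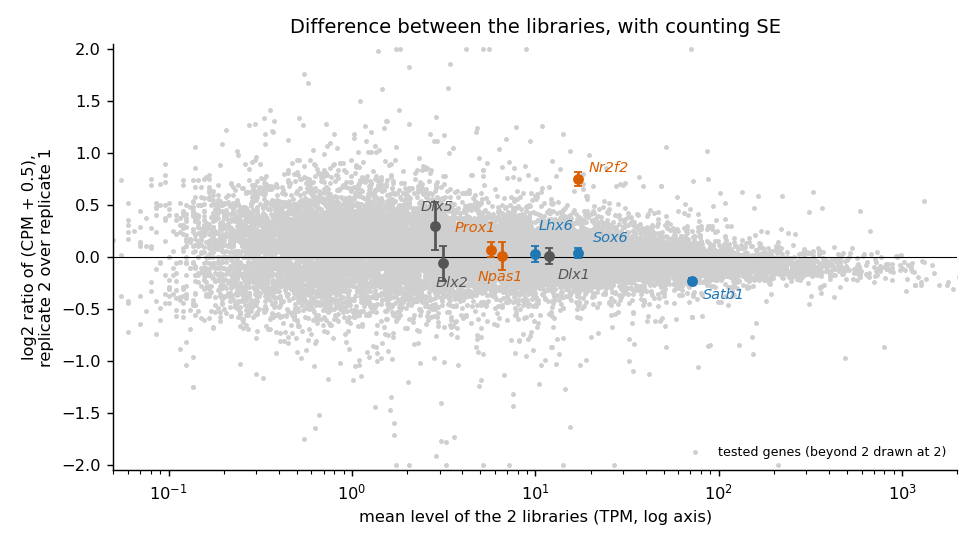
Log2 ratio of (CPM + 0.5), replicate 2 over replicate 1, against mean level (TPM, log axis), with tested genes within the level axis in grey. Ratios beyond 2 in either direction are drawn at the edge. The 9 factors are in colour (grey-black shared, blue medial, orange caudal) with bars of 1 counting SE. Nr2f2 at 0.75 lies above most genes of its level, Satb1 lies at -0.23 and the others near 0, Dlx5 with the widest bar.

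The Nr2f2 transcripts did not differ alike. Nr2f2-201, which carried 79.8% and 80.9% of the gene's counts, went from 6.28 to 11.3 TPM, 1.80-fold. Nr2f2-204 (636 nt) went from 2.78 to 6.03 TPM, 2.17-fold, on 32.01 and 66.56 counts. Nr2f2-202, which starts 6142 bases upstream of Nr2f2-201, had 75.89 and 88.97 counts and went from 2.26 to 2.77 TPM, 1.23-fold. Its share of Nr2f2 TPM was 18.6% in replicate 1 and 12.6% in replicate 2. In the second quantification Nr2f2-204 was the highest, at 8.84 and 22.2 TPM (2.52-fold). Nr2f2-201 was at 7.68 and 14.2 TPM (1.84-fold) and Nr2f2-202 at 4.96 and 6.16 TPM (1.24-fold). The 3 retained-intron transcripts, each below 1 TPM in the first quantification, had ratios of 1.85 to 2.67 there and of 1.79 to 3.33 in the second. The transcript from the outer start thus had the smallest ratio of the 6 in both quantifications. Transcript values are estimates from the same reads, and their differences were not tested.

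**Figure D4:**
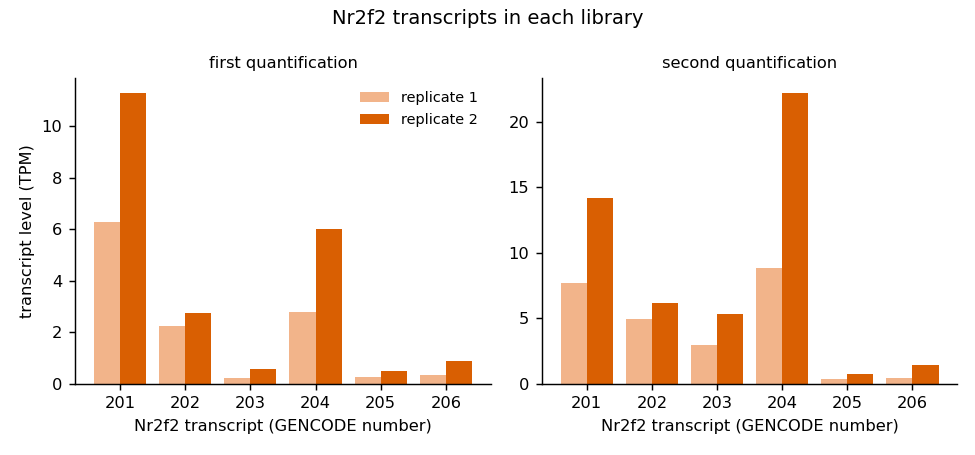
Level (TPM) of each annotated Nr2f2 transcript in replicate 1 (light bars) and replicate 2 (dark bars), in the first quantification at left and the second at right, with separate axes from 0. Transcript 201 goes from 6.28 to 11.3 TPM in the first quantification, and transcript 202 goes from 2.26 to 2.77 TPM and from 4.96 to 6.16 TPM.

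The 250 bases before the RefSeq start of Nr2f2, 11 bases upstream of the start of Nr2f2-202, are shown because this start carries the transcript with the smallest ratio between libraries (chr7:70366747-70366996, GRCm38.p6, minus strand, from RefSeq). The table holds no window for the start of Nr2f2-201. The window lies outside Nr2f2 and overlaps an exon of B130024G19Rik, a noncoding gene on the other strand. None of the 3 motifs was in it.
Nr2f2 outer start: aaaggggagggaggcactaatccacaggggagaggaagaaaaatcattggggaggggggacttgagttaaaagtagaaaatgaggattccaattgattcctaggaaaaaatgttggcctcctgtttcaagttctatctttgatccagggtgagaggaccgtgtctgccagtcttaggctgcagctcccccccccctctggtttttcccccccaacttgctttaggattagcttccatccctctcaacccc
B130024G19Rik itself had 27 and 71 counts, a log2 ratio of 1.01 and adjusted p = 0.000134 in the exact binomial test. Its counting SE, from counts without the added 0.5 CPM, was 0.33, and the ratio is understated at so few counts. Both B130024G19Rik and Nr2f2 were thus higher in replicate 2, and the counts of B130024G19Rik were few beside those of Nr2f2. Its span (70364910 to 70489972) meets only the outer end of Nr2f2, so that reads of the 2 genes may be mixed there without the strand setting. Nr2f2-201, which starts at 70360593 and runs away from it, lies outside that span and had 555.88 and 959.72 counts. The part of mixed reads in the Nr2f2 difference was not tested.

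Other genes of the interneuron lineage differed in both directions. From here on, list genes counted as higher or lower are those called in the exact binomial test. Of all genes tested, 8.50% were called higher and 11.8% lower in replicate 2. Of 12 other lineage factors, 11 were tested, 2 were higher in replicate 2, 2 were lower and 7 did not pass. Nr2f1, the paralog of Nr2f2, had 2863 and 3103 counts, a log2 ratio of 0.11 ± 0.04 and adjusted p = 0.0138 in the exact binomial test, a far smaller difference than that of Nr2f2. Maf, a factor of medial-eminence cells also found in microglia, was higher by 0.21 on the log2 scale. Dlx6, the partner of Dlx5, fell from 171 to 124 counts (log2 ratio -0.42, adjusted p = 0.0341 in the exact binomial test) while Dlx5 had 69 and 89. Dlx6os1, which is antisense to Dlx6 and was picked out after its values were seen, had 388 and 571 counts. Without the strand setting, reads of Dlx6 and Dlx6os1 may be mixed, which was not tested. Zeb2 was lower by a log2 ratio of -0.08, and Nkx2-1, the medial-eminence selector, had 9 and 12 counts. The 4 GABA neuron genes had log2 ratios of -0.05 to 0.04, and 0 of 4 passed the exact binomial test.

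The interneuron class products did not move in 1 direction. Of 8 medial-origin genes 1 was higher and 4 lower in replicate 2, with a median log2 ratio of -0.09, Pvalb among the lower ones at -0.36 and Chodl the higher one at 1.01. Of 10 caudal-origin genes 3 were higher and 3 lower, with a median of -0.06. Calb2, the calretinin gene, rose from 425 to 645 counts (log2 ratio 0.58), and Lamp5 fell from 2818 to 2396 (log2 ratio -0.23). Vip, with 609 and 584 counts, and Prox1 did not pass, while Nr2f2 did.

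Markers of other cells and regions were set beside Nr2f2. Fibroblast genes of meninges and vessels were called higher in 3 of 6 cases. All 6 had positive ratios, though Col1a1, at 0.03, was close to 0. Their median log2 ratio was 0.38, and their summed levels were 117 and 146 TPM, most of it Igf2 at 70.9 and 84.9 TPM. Dcn, a matrix proteoglycan, was among the called ones at 331 and 581 counts (log2 ratio 0.78). Endothelial genes were called higher in 1 of 6 cases, with 4 positive ratios, a median of 0.02 and summed levels of 85.8 and 86.8 TPM. Choroid plexus genes were higher in 5 of 5, from 12.1 to 138 TPM in sum, most of it Ttr. Genes of hypothalamus, thalamus and basal forebrain, a list chosen after values were seen, were higher in 5 of the 8 tested, from 16.9 to 37.4 TPM in sum. No gene of these 4 lists was at 0 in both libraries, and Oxt was at 0 in replicate 1. Neuroblast and proliferation genes were called higher in 3 of 6, with 4 positive ratios and a median of 0.21. Dcx (0.38) and Sox11 (0.42) were among the called ones, while the cycling gene Mki67 had -0.19 and did not pass. The part of all these cells in the Nr2f2 difference was not tested.

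Satb1 was lower beside several other lists. Excitatory neuron genes were lower in 5 of 6 cases, with a median log2 ratio of -0.15, from -0.25 for Neurod2 to -0.03 for Neurod6, beside -0.23 for Satb1. Striatal genes were lower in 8 of 9 and myelin genes in 6 of 6, with medians of -0.61 and -0.95. The other striatal gene, Isl1, was called higher on 13 and 45 counts (log2 ratio 1.06). The part of the cells behind these lists in the Satb1 difference was not tested. Oligodendrocyte precursor genes, which share cells with Sox6, were lower in 5 of 6 with a median of -0.18, and Sox6 had 0.04.

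**Figure D5:**
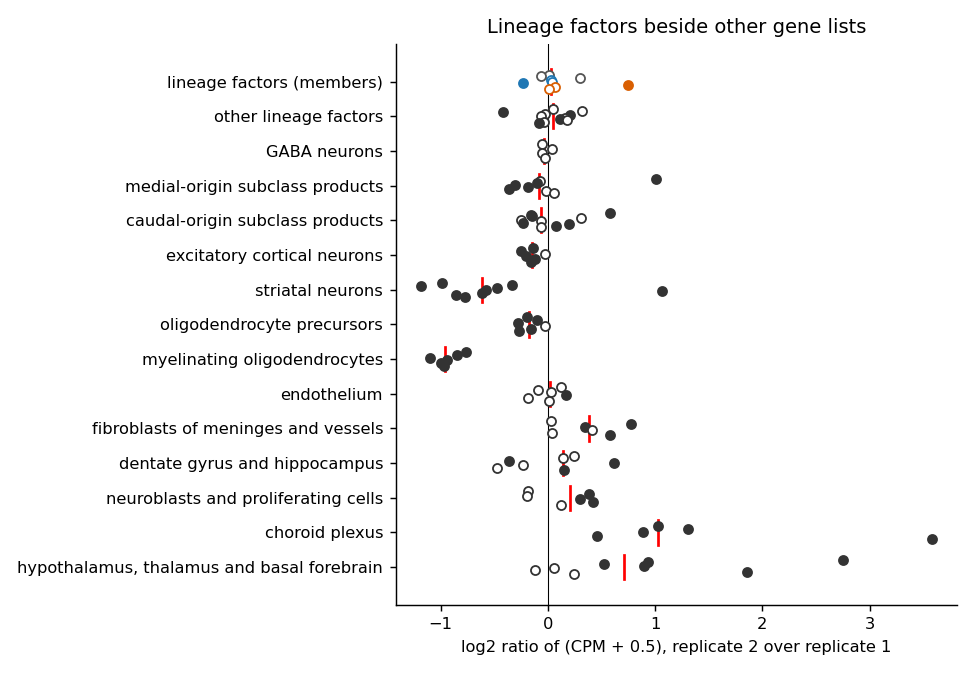
Log2 ratio of (CPM + 0.5), replicate 2 over replicate 1, of each tested gene by list, filled where called at adjusted p under 0.05 in the exact binomial test, with list medians as red lines. The factors are in the top row (grey shared, blue medial, orange caudal), Nr2f2 at the right at 0.75 and Satb1 at the left at -0.23, and the last row is the list chosen after values were seen.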

How the data were processed

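Levels of the 9 factors in 2 cortex libraries of 1 group were taken from tables the authors deposited on mm10 with GENCODE M21, per the deposited text records. Tools and strand settings: not given in the sources used here. For genes and transcripts alike, expected counts are the authors' estimates of reads, not normalised, per the file headers. TPM values were scaled by the authors across every row, also the spike-ins, so abundant short RNAs lower every other gene. The percent of a gene's TPM per transcript, deposited in a column of its own, was recomputed here from TPM for both quantifications. Gene counts were whole numbers in both libraries for 8 of the 9 factors, all but Satb1.

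The 26249 rows that name no gene or ERCC spike-in took 1.49e-05% and 1.51e-05% of counts and were left out. Depth was 33362704 and 32013997 gene counts, and intervals cover counting error only. Libraries were compared by an exact binomial test (two-sided) of the rounded counts, with shares from edgeR 4.0.16 TMM sizes, over 18887 genes with 10 counts or more in a library, adjusted by Benjamini-Hochberg in R 4.3.3. A quasi-likelihood fit is not possible with 1 library on each side. Log2 ratios are of CPM + 0.5 and understate low genes, while the intervals are from scaled counts without the added 0.5 CPM. The test was tested on simulated counts with counting error alone. Transcript starts within 200 bases of the next were grouped. Promoter windows were read from RefSeq (GRCm38.p6).

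The factors and lists were chosen with earlier results of these data known. Named genes are the 9 factors and genes overlapping them at 1 TPM or more in a library. Of each other list they were drawn from the 2 highest, the lowest, and the 2 called genes with the largest ratios, and Vip, Neurod6, Prox1os and Oxt were added after their values were seen. Likeness of pattern to other genes was not computed, since 2 libraries give no pattern. Alternatives changed the scaling (DESeq2 1.42.0 size factors, total counts, ERCC counts), the count minimum, the pseudocount, the quantification, the TPM total (rescaled over nuclear coding genes), the dispersion and the list members. Summaries and figures used Python, with numpy, pandas and matplotlib.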

Additional observations from a re-analysis of the deposited data

How the results depend on the processing

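No paired analysis was possible because both libraries belong to 1 group. The calls of the 9 factors held in direction and side of the threshold in all but 2 combinations of factor and alternative. The exceptions were Satb1 with an assumed dispersion of 0.01 (adjusted p = 1 in edgeR's exact test) and the uncalled Sox6 ratio, which was -0.01 in the second quantification. The number of genes called went from 3840 (1606 higher, 2234 lower in replicate 2) to 182 (100 higher, 82 lower) with that dispersion. Total counts gave 2733 higher and 1145 lower, and ERCC counts 2570 higher and 1229 lower; these scalings moved the median log2 ratio of all genes by 0.057 and 0.051. Under them Nr2f2 was at 0.81 in both, and Satb1 at -0.17 and -0.18. The medial over caudal log2 ratio of 1.35 became 1.77 with sums, 0.96 in the second quantification, 0.60 without Npas1, 1.24 with a pseudocount of 1 TPM, and, in alternatives chosen after seeing the data, 1.02 without Satb1, 1.45 without Nr2f2 and -0.10 with sums without Satb1, the only one below 0. Leaving out each replicate gave 1.28 to 1.41. The cause of these shifts was not tested, beyond the change of genes or scale that each alternative makes. Rescaling TPM over nuclear coding genes raised the levels of all 9 factors (Satb1 71.6 to 148, Dlx5 2.85 to 5.88), and the second quantification moved 8 of 9 by more than the spread, all but Sox6 (Nr2f2 17.1 to 37.7). Dlx1, at 23.2 there, stood above Sox6 (18.9). Counts below 100, as for Dlx5, limit what can be called.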
